A study of Arabidopsis thaliana with 8 samples.

Results

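The response of wild-type Arabidopsis thaliana seedlings to heat shock was described from 4 of the 8 arrays of a study of heat shock. The members were chosen by their labels: 2 arrays of Col-0 seedlings taken directly after heat shock at 37 °C and 2 arrays of Col-0 seedlings kept at 22 °C. Col-0 is a standard laboratory strain and carried no mutation here. The other 4 arrays held til1-1, a lipocalin mutant, at the same temperatures, and entered only the estimate of the spread. About 100 whole seedlings, 7 days old, were pooled for each sample, with 2 biological replicates per group. The length of the heat treatment is not stated in the sources. A pool of whole seedlings mixes all cell types, so fewer cells of a type and less RNA per cell cannot be told apart.

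Heat unfolds proteins, and plant cells answer through heat stress transcription factors that switch on chaperones, the proteins that keep others folded or rescue them. Calcium signals, the quality control of the endoplasmic reticulum and protein turnover by ubiquitin and autophagy take part in the same response. Growth in seedlings depends on loosening and building the cell wall, and its genes are known to be sensitive to many stresses.

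Each value was a probe set intensity in arbitrary units, and a fold change was the difference of group means of log2(intensity + 16), 37 °C minus 22 °C. A gene was called when limma's adjusted p was under 0.05. Array medians were 154.75 and 158.7 at 37 °C, against 199.25 and 200.9 at 22 °C, so the arrays did not share a midpoint. Of 17059 tested probe sets, 2118 (12.4%) were called higher and 5343 (31.3%) lower in the values as deposited. The split between higher and lower turned with the scaling. With array medians set equal, 5189 (30.4%) were higher and 2476 (14.5%) lower, and with quantile normalization 2677 (15.7%) and 3900 (22.9%). Scaled to 9 spiked control probe sets, 680 (3.99%) were higher and 12640 (74.1%) lower. The median fold change of all tested probe sets was -0.18 as deposited, 0.14 with equal medians, -0.05 with quantile normalization and -0.74 with the spiked controls. A call is named stable below where it held with 1 sign under all 4 scalings. This was so for 679 probe sets (3.98%) higher and 2433 (14.3%) lower. The count of 679 is close to the 680 called higher with the spiked controls alone. The count of 2433 is close to the 2476 called lower with equal medians alone. Stability thus rested mainly on the spiked controls for rises and on equal medians for falls, rather than on 4 separate checks. These scalings moved the median from -0.18 to -0.74 and 0.14. Shares of stable rises and of stable falls thus cannot be compared with each other.

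**Figure D1:**
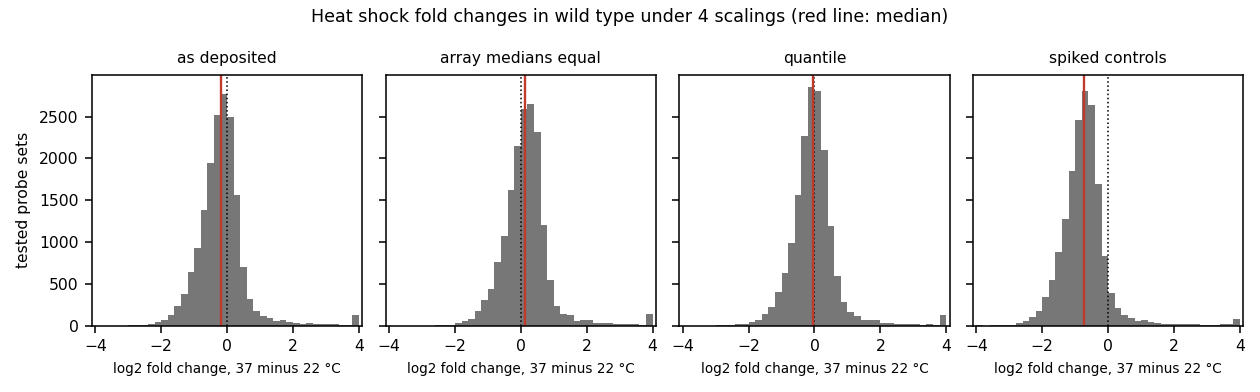
Number of tested probe sets (vertical axis) by log2 fold change, 37 minus 22 °C (horizontal axis), under 4 array scalings, with a red line at the median and values beyond the ends counted in the last bars. The median lies at -0.18 as deposited, 0.14 with equal array medians, -0.05 with quantile normalization and -0.74 with the spiked controls.

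Among 9196 tested nuclear genes whose probe sets the annotation pairs with 1 gene, 970 (10.5%) were called higher and 2822 (30.7%) lower as deposited. The stable calls were 305 (3.32%) higher and 1258 (13.7%) lower. These shares of calls and of stable calls are the background for the list counts below. The lists were drawn from gene symbols, and of 13350 genes only 1656 had a name beyond the locus. Counts for a family thus cover its listed genes and may leave out members given by locus alone. The groups did not overlap for 6688 of these genes (72.7%), so a gap between the 2 groups is common in these data. Measures of the RNA differed between temperatures, not all in 1 direction. The 25S ribosomal RNA control had intensities of 1828.4 and 3966.8 at 37 °C, against 335.3 and 368.6 at 22 °C. The 3' to 5' ratio, a measure of RNA integrity, was 17.7 and 14.7 at 37 °C, against 10.4 and 10.7 at 22 °C, for one actin control. It was 2.16 and 1.86 at 37 °C, against 1.75 and 1.74 at 22 °C, for the other. The ubiquitin control went the other way, with 2.09 in both heated samples, against 2.45 and 2.52 at 22 °C, and the GAPDH control overlapped, with 1.84 and 1.55 at 37 °C, against 1.63 and 1.73 at 22 °C. Their part in the results was not tested.

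The largest rises outside the chaperone list belonged to genes that the annotation gives by locus alone. That list was also drawn from gene symbols, so chaperones given by locus alone may be among these genes. AT1G30070 had intensities of 21278.8 and 21017.2 at 37 °C, against 183.7 and 156.8 at 22 °C. AT5G10695 had 24495.0 and 24040.0 at 37 °C, against 265.1 and 272.9 at 22 °C. Both heated samples stood far above both controls, and groups without overlap were a condition of the choice. The fold changes were 6.83 ± 0.09 (SE, n = 2 per group, adjusted p = 2.56e-14) and 6.41 ± 0.07 (adjusted p = 1.22e-14) on the log2 scale. AT1G10260 reached 2041.0 and 2023.2 at 37 °C and was near the bottom of the scale, at 3.7 and 3.3, at 22 °C. Its fold change of 6.71 understates the change, because the added constant outweighs such dim values. The other 12 of the 15 largest rises lay between 4.93 (AT1G48720) and 6.42 (AT1G21550). AT1G48720 differed most between heated samples among these, at 445.5 and 737.6, against 6.0 and 1.0 at 22 °C. The probe sets of AT1G10260 and AT1G48720 carry the suffix _s_at, so other transcripts may share their signal.

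The largest falls were smaller in size than the largest rises. AT5G54370 had 52.5 and 77.4 at 37 °C, against 882.1 and 932.0 at 22 °C, a fold change of -3.53 ± 0.23 (adjusted p = 1.9e-07). BGLU33, a member of the family 1 beta-glucosidases, had 31.3 and 34.7 at 37 °C, against 383.8 and 387.6 at 22 °C, a fold change of -3.04 ± 0.19. Heated and control samples did not overlap for either gene, a condition of the choice of these genes. The list of 15 also held GH9C2, an endoglucanase of the cell wall, SBT4.12, a subtilase (a protease), and PRX71, a class III peroxidase. The remaining falls ran from -2.81 (AT1G28400) to -2.39 (PRX71).

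**Figure D2:**
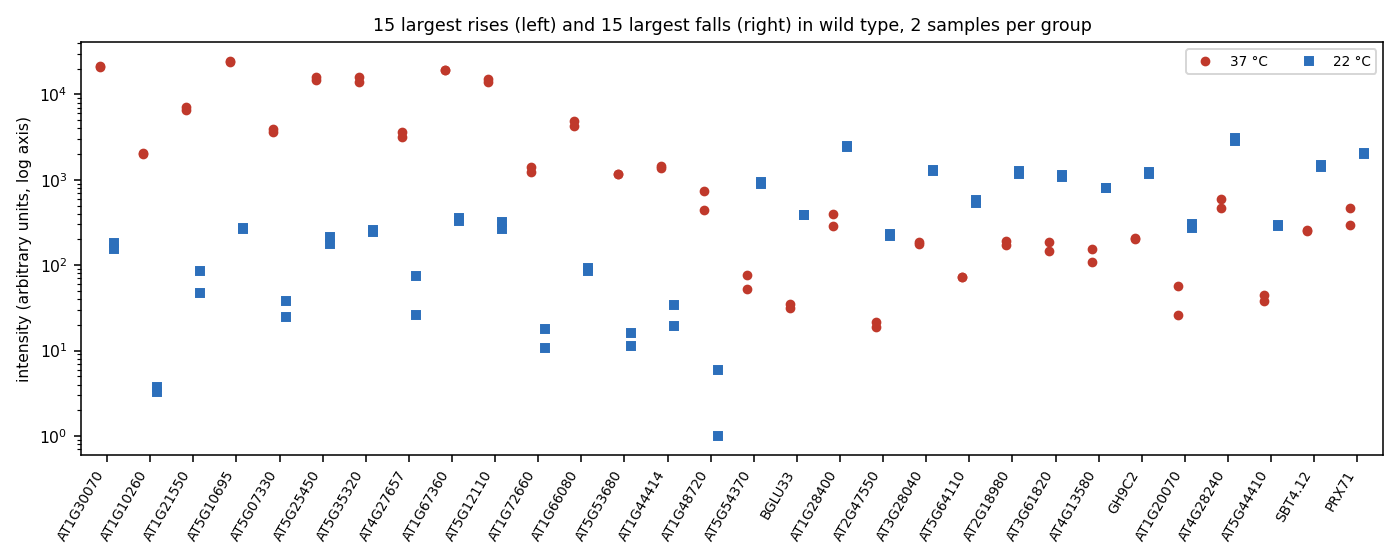
Intensity on a log axis in each wild-type sample (37 °C circles, 22 °C squares) of the 15 largest stable rises and 15 largest stable falls outside the chaperone list. The 2 groups do not overlap for any of the genes plotted, a condition of their choice, and the rises span wider gaps than the falls.

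Genes of calcium sensing split by member. Of 7 tested calmodulin-like genes, which encode calcium sensors, 3 rose and 2 fell, against 10.5% and 30.7% of nuclear genes, and their median was 0.02. CML37 had 267.7 and 316.2 at 37 °C, against 1.2 and 4.2 at 22 °C. CML38 had 937.2 and 608.6 at 37 °C, against 157.7 and 52.2 at 22 °C. CML23 had 646.3 and 787.4 at 37 °C, against 131.1 and 109.2 at 22 °C. All heated samples were above all controls for these 3, and the rises of 4.04, 2.83 and 2.43 were stable. The value of CML37 understates its change, since its controls lie far below the added constant. CML42 fell by 0.90, also a stable call. The IQ67-domain proteins, which bind calmodulin, had no rise as deposited among 13 tested genes and 7 falls, with a median of -0.65. Only 1 of those falls was stable, that of IQD24, which had 114.1 and 150.4 at 37 °C, against 275.7 and 282.1 at 22 °C.

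WRKY and AP2/ERF transcription factors moved in both directions as deposited. Of 5 tested WRKY genes, WRKY53 and WRKY22, regulators of senescence and of defence, rose and WRKY6 fell. WRKY53 had 300.6 and 204.9 at 37 °C, against 66.8 and 43.3 at 22 °C, and WRKY6 had 80.4 and 84.4 at 37 °C, against 285.7 and 293.9 at 22 °C. The 2 genes thus stood in opposite order with no overlap, with fold changes of 1.92 ± 0.24 (adjusted p = 4.8e-05) and -1.64 ± 0.18 (adjusted p = 1.43e-05). Of 8 AP2/ERF genes, 1 rose and 5 fell, against 10.5% and 30.7% of nuclear genes. The rise was that of ORA47, an activator of jasmonate synthesis genes, with 235.0 and 245.0 at 37 °C, against 141.2 and 65.1 at 22 °C. Its controls were wide apart, and without the second control its fold change of 1.18 was 0.70 (adjusted p = 0.133). It also missed the threshold without the second heated sample (adjusted p = 0.0545) and with no intensity trend (adjusted p = 0.055). OPCL1, an enzyme of jasmonate synthesis, had 913.2 and 841.0 at 37 °C, against 238.4 and 229.6 at 22 °C, a stable rise of 1.84.

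In 3 families of developmental regulators the shares of falls lay near the 30.7% of all nuclear genes: 2 of 8 MADS-box genes, 1 of 4 B3 genes and 7 of 19 bHLH genes, with no rise as deposited. SMZ, a repressor of flowering of the AP2 group, had 94.5 and 73.4 at 37 °C, against 289.1 and 314.0 at 22 °C. AGL16, a MADS-box factor, had 121.9 and 86.9 at 37 °C, against 466.3 and 416.8 at 22 °C. NGA1, a B3 factor of leaf and carpel development, had 40.5 and 50.1 at 37 °C, against 143.8 and 184.7 at 22 °C. Each gene was lower in both heated samples than in both controls, and the fold changes of -1.67, -1.94 and -1.55 were stable. Of the 7 bHLH falls 3 were stable: MYC4, a jasmonate response factor, BIM1, a factor of the brassinosteroid response, and LHW, a regulator of vascular development.

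Of 7 tested clock genes 1 rose, 2 fell and 4 were not called, shares near those of all nuclear genes. XCT, a clock gene, had 461.4 and 533.0 at 37 °C, against 184.3 and 165.1 at 22 °C. TIC, which acts in the same clock, had 782.0 and 617.3 at 37 °C, against 1937.5 and 1891.9 at 22 °C. XCT was above and TIC below its controls without overlap, with stable fold changes of 1.43 ± 0.14 and -1.44 ± 0.11. The time of day at sampling is not stated in the labels.

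Of 12 tested RALF-like and CLE genes, which encode signalling peptides, 6 fell and none rose as deposited, against 30.7% and 10.5% of nuclear genes. With array medians set equal, 4 of the 12 were lower and 3 higher, and 4 falls were stable. RALFL31 had 79.8 and 89.5 at 37 °C, against 311.3 and 268.2 at 22 °C. CLE41, a peptide that holds back xylem differentiation, had 145.1 and 147.0 at 37 °C, against 408.0 and 388.3 at 22 °C. Both genes were lower in every heated sample. Among 10 receptor kinase genes 6 fell and 1 rose. The receptors PSY1R, PXL2 and GSO1 fell stably, with fold changes of -1.35, -1.10 and -0.99. The rise of the cytoplasmic kinase PTI1-4 (0.74) shrank to 0.15 (adjusted p = 0.423) with the spiked controls. Of 9 tested tetraspanins, membrane proteins that organise surface domains, 4 fell and 1 rose. The rise was that of TET8, with 4179.8 and 3448.5 at 37 °C, against 1634.8 and 1559.7 at 22 °C. TET7 fell, with 295.4 and 312.6 at 37 °C, against 846.7 and 858.4 at 22 °C.

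**Figure D3:**
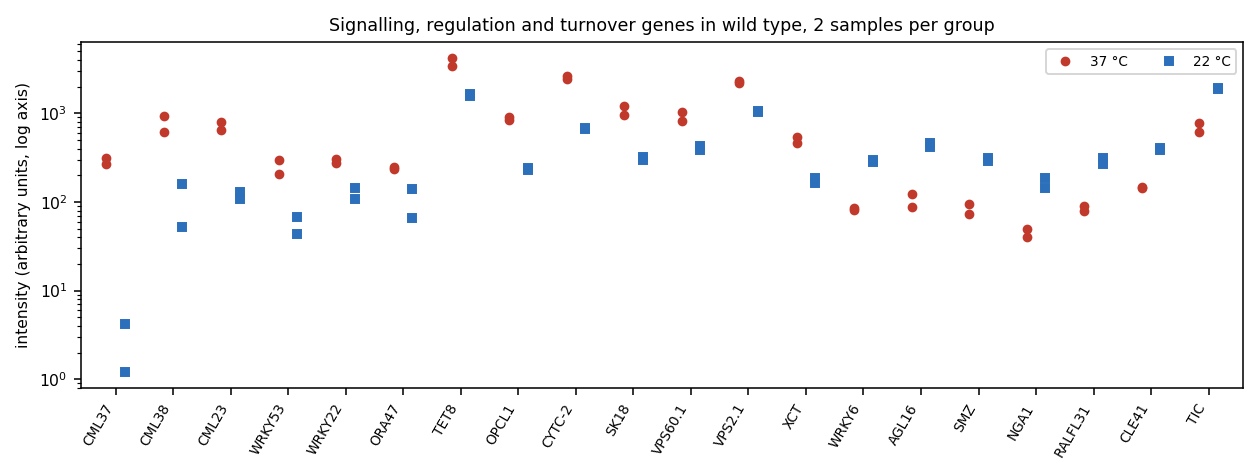
Intensity on a log axis in each wild-type sample (37 °C circles, 22 °C squares) of signalling, regulation and turnover genes. The first 13 genes, CML37 to XCT, are higher and the last 7, WRKY6 to TIC, lower at 37 °C, with no overlap between groups. The genes were chosen among called ones, and groups did not overlap for 72.7% of all tested nuclear genes.

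Protein turnover genes rose in part. SK18, an adaptor of SCF ubiquitin ligases, had 1205.3 and 959.0 at 37 °C, against 324.7 and 295.2 at 22 °C, a stable rise of 1.74 ± 0.12 (adjusted p = 2.64e-07). The RING gene BRH1 had 576.2 and 571.3 at 37 °C, against 1659.0 and 1549.7 at 22 °C, a stable fold change of -1.46. The 2 genes moved in opposite directions, and of 16 tested ligase components 5 rose and 6 fell. None of the 12 ubiquitin-specific proteases, which remove ubiquitin, rose as deposited, and 6 fell, against 10.5% and 30.7% of nuclear genes. UBP22, UBP24, UBP16 and UBP15 fell stably, with fold changes of -0.98, -0.94, -0.93 and -0.87.

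Membrane remodelling genes of the ESCRT machinery, which sorts ubiquitin-tagged membrane proteins for degradation, rose in 7 of 14 cases and fell in 2. The shares of all nuclear genes were 10.5% higher and 30.7% lower. VPS60.1 had 1037.6 and 819.1 at 37 °C, against 423.7 and 387.7 at 22 °C. VPS2.1 had 2299.2 and 2186.3 at 37 °C, against 1043.5 and 1052.8 at 22 °C. Both stood above their controls, and their rises of 1.15 and 1.09 were the only stable ones in the list. The list median was 0.34 as deposited and -0.25 with the spiked controls, against -0.19 and -0.75 for all nuclear genes. Of 11 autophagy genes, 6 rose and none fell, with a median of 0.34. No autophagy call was stable. With the spiked controls the autophagy median was -0.26, still above the -0.75 of all nuclear genes. The fold change of APG8A, an ATG8 gene, was 0.10 with the spiked controls (adjusted p = 0.565), against 0.70 as deposited. In the exocyst and secretory fusion list of 14 tested genes 2 rose and 4 fell, 2 of them stably. These shares were near the 10.5%, 30.7% and 13.7% of all nuclear genes. The stable falls were those of SEC15A and SEC6, subunits of the complex that tethers secretory vesicles.

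Wall-loosening genes fell in most cases. Of 22 tested expansin and xyloglucan enzyme genes, whose products loosen the wall, 15 fell and 3 rose, against 30.7% and 10.5% of nuclear genes. Of the falls 11 were stable, and the median was -1.01, against -0.19 for all nuclear genes. EXPA4 had 262.2 and 247.0 at 37 °C, against 1049.4 and 1115.8 at 22 °C. EXPA15 had 131.7 and 113.7 at 37 °C, against 525.5 and 555.4 at 22 °C. Both genes were lower in every heated sample, and EXPA8 and EXPB3 had fold changes of -1.58 and -1.56. The 3 rises were those of XTH18, EXLA2 and EXLA1, which are named here after their values were seen. XTH18 had 519.9 and 947.5 at 37 °C, against 361.5 and 304.1 at 22 °C, and was the stable one, while EXLA2 missed the threshold with the spiked controls (0.53, adjusted p = 0.057). The list includes EXPA7 and EXPA18, which are also markers of root hair cells and fell stably, with fold changes of -1.20 and -1.19; the part of root hair cells in the falls of the list was not tested.

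Of 11 cellulose synthase-like and xylan genes, which build wall polymers, 10 fell and none rose, against 30.7% and 10.5% of nuclear genes, and 5 falls were stable. CSLC5, of the family that makes the xyloglucan backbone, had 188.8 and 171.7 at 37 °C, against 513.2 and 562.3 at 22 °C. COB, which orients cellulose microfibrils, had 1230.4 and 1586.6 at 37 °C, against 3186.6 and 3011.6 at 22 °C. Both were lower in every heated sample. Of 19 TRICHOME BIREFRINGENCE-LIKE genes, linked to the acetylation of wall polymers, 10 fell and none rose as deposited, 6 stably, led by TBL25 (-1.19). GH9C2 averaged 203 ± 4.3 at 37 °C and 1197 ± 39 at 22 °C (SD, n = 2 each), and of 9 GH9 genes 4 fell and none rose.

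Most tested subtilase, serine carboxypeptidase-like, class III peroxidase and SKU5 family genes also fell as deposited. Of 9 subtilases 6 fell, 5 of them stably, with a median of -1.16. Among all nuclear genes 30.7% fell, 13.7% stably, with a median of -0.19. SBT4.12 had 260.8 and 252.0 at 37 °C, against 1491.6 and 1410.7 at 22 °C, a fold change of -2.43 ± 0.13, and SBT1.3 fell by 1.51 on the log2 scale. Of 17 serine carboxypeptidase-like genes 13 fell and none rose as deposited, 9 stably, with a median of -0.76. The bright member SCPL49 had 2135.0 and 2087.6 at 37 °C, against 4340.6 and 3998.0 at 22 °C. Of the 5 class III peroxidases listed and tested 4 fell, and PRX71 had 293.2 and 465.3 at 37 °C, against 2034.3 and 1981.2 at 22 °C. SKU5, a glycoprotein of directional root growth, and its relatives sks15 and sks16 all fell stably, with fold changes of -1.24, -1.97 and -1.60.

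**Figure D4:**
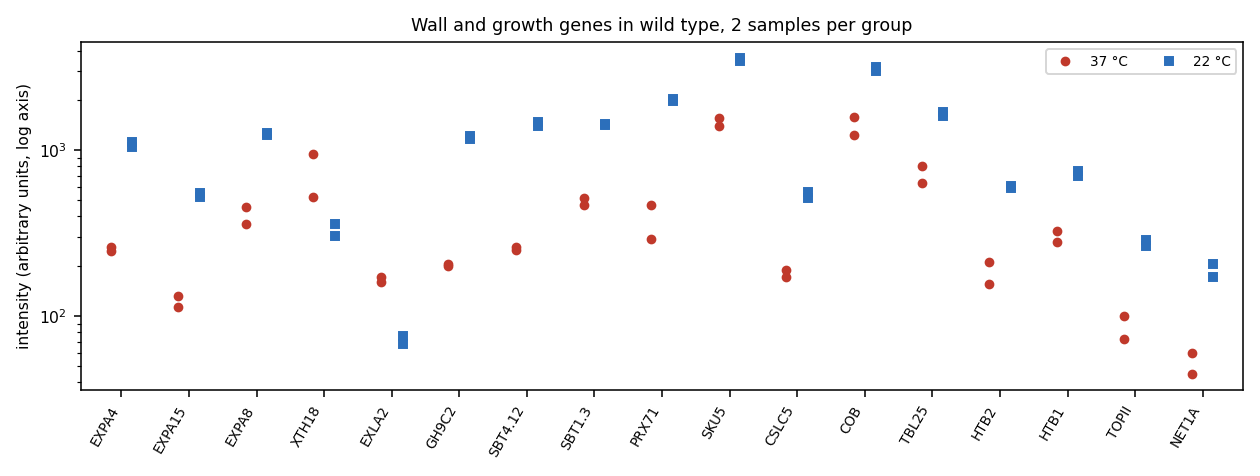
Intensity on a log axis in each wild-type sample (37 °C circles, 22 °C squares) of wall and growth genes. All are lower at 37 °C except XTH18 and EXLA2, and no gene plotted has overlapping groups. The genes were chosen among called ones, and groups did not overlap for 72.7% of all tested nuclear genes.

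Of 11 tested histone and high-mobility-group genes 4 fell, all stably, and 1 rose, and 5 were higher with array medians set equal. The shares of falls and rises as deposited were near those of all nuclear genes. The histone H2B gene HTB2 had 210.5 and 156.7 at 37 °C, against 595.9 and 606.8 at 22 °C. HTB1 had 325.9 and 278.0 at 37 °C, against 700.0 and 747.1 at 22 °C. Both were lower in every heated sample. Of 17 cell cycle and replication genes 6 fell, 4 of them stably, and none rose as deposited, while 2 were higher with equal medians; the share of falls was again near 30.7%. TOPII, a DNA topoisomerase, fell by 1.52 and SIM, an inhibitor of mitotic division, by 0.98. The actin-binding NET1A had 44.6 and 59.6 at 37 °C, against 205.3 and 171.9 at 22 °C. Of 8 tubulin and actin genes 4 fell as deposited and 2 were higher with equal medians, and the fall of TUB1 (-0.65) was the 1 stable call.

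Some metabolic genes rose as deposited. CYTC-2, a cytochrome c of the mitochondrial respiratory chain, had 2651.0 and 2456.6 at 37 °C, against 684.7 and 670.2 at 22 °C, a stable rise of 1.89 ± 0.11 (adjusted p = 5.54e-08). Both heated samples stood above both controls. In the list of the tricarboxylic acid cycle, citrate cleavage and cytochrome c, 4 of 16 tested genes rose, 1 stably, and 2 fell. Among all nuclear genes 10.5% rose, 3.32% stably, and 30.7% fell. Of 10 genes of branched-chain amino acid breakdown, 4 rose and none fell as deposited. The 4 were MCCA and MCCB, the subunits of methylcrotonyl-CoA carboxylase, IVD and ALDH6B2. Their rises of 0.51, 0.40, 0.46 and 0.38 had the opposite sign with the spiked controls (-0.09, -0.20, -0.14 and -0.22). The median of all nuclear genes with that scaling was -0.75. The call of ALDH6B2 was also lost with quantile normalization (0.14, adjusted p = 0.268) and with no intensity trend (adjusted p = 0.0629). It was lost too without the second heated sample (adjusted p = 0.0813) and without the first control (adjusted p = 0.0883).

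In the list of 14 sugar transporters 6 fell, 4 of them stably, and none rose, against 30.7%, 13.7% and 10.5% of nuclear genes. TMT1, a sugar importer of the vacuole, had 639.4 and 569.3 at 37 °C, against 1538.2 and 1591.1 at 22 °C. GTR2, a glucosinolate transporter, had 402.9 and 413.7 at 37 °C, against 1390.6 and 1491.4 at 22 °C. CHX20, a cation exchanger known from guard cells, had 187.3 and 170.3 at 37 °C, against 685.0 and 701.6 at 22 °C. All 3 were lower in every heated sample. Of the 12 tested cation, proton and metal transporter genes that include CHX20, 6 fell, 4 stably, and 1 rose, and 3 were higher with equal medians. The 2 tested genes of stomatal development, SPCH and STOMAGEN, were not called as deposited, while 1 of them was higher with equal medians and both lower with the spiked controls. SPCH was also called lower without the first heated sample (-1.21) and with the wild-type samples fitted alone. Of 14 cytochrome P450 genes 9 fell, 4 stably, and none rose. Of 37 UGT glycosyltransferases 11 fell, 5 stably, and 3 rose, shares near the 30.7% and 10.5% of all nuclear genes, and UGT73C1 was the 1 stable rise, from dim values: 84.3 and 90.8 at 37 °C, against 15.8 and 23.1 at 22 °C. Its call was lost without the first control (1.40, adjusted p = 0.0565).

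Of 19 tested factors of organelle RNA and photosystem assembly 9 fell, 3 of them stably, 1 rose and 9 were not called, with a median of -0.56. With array medians set equal 3 of the factors were higher and 3 lower. Of all nuclear genes 30.7% fell, 13.7% stably, and 10.5% rose as deposited. CRR21, an RNA editing factor, had 155.6 and 156.6 at 37 °C, against 442.8 and 412.2 at 22 °C. Of 7 genes of transfer RNA processing and translation 3 fell, 2 stably, and none rose as deposited. TRZ3, which trims transfer RNAs, had 124.2 and 114.0 at 37 °C, against 326.7 and 331.8 at 22 °C. CRR21 and TRZ3 fell stably, with fold changes of -1.36 and -1.35. Of 23 nuclear photosynthesis genes 10 rose and 3 fell as deposited. Their median was 0.11 as deposited, against -0.19 for all nuclear genes. It was -0.23 with quantile normalization and -0.49 with the spiked controls, against -0.04 and -0.75. None of the calls was stable. PSB27, a photosystem II assembly protein, was an example, at 0.49 as deposited, 0.05 with quantile normalization and -0.11 with the spiked controls.

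Most transcripts of the organelle genomes were higher in the values as deposited. All 15 tested mitochondrial genes rose, 14 stably, with a median of 2.88. Of 69 plastid genes 39 rose and 2 fell with a median of 0.38, which was -0.22 with the spiked controls, and no plastid rise was stable. For nuclear genes these medians were -0.19 and -0.75. The seed marker OLEO3 and the pollen marker AGL65 were not called, and the markers of xylem and of the shoot meristem were too dim to be tested.

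Across 67 lists with 4 or more tested genes, the median was below 0 under all 4 scalings in 28 and above 0 under all 4 in 1, the chaperones. In the other 38 the sign depended on the scaling. The count of 28 is that with equal medians alone, and the count of 1 that with the spiked controls alone. The median of all tested probe sets was 0.14 and -0.74 under these scalings, so both counts depend on where a scaling sets the arrays. Of 34 tested chaperone genes 22 rose and 2 fell, 21 and 1 of them stably, with a median of 2.81 as deposited and 2.22 with the spiked controls.

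**Figure D5:**
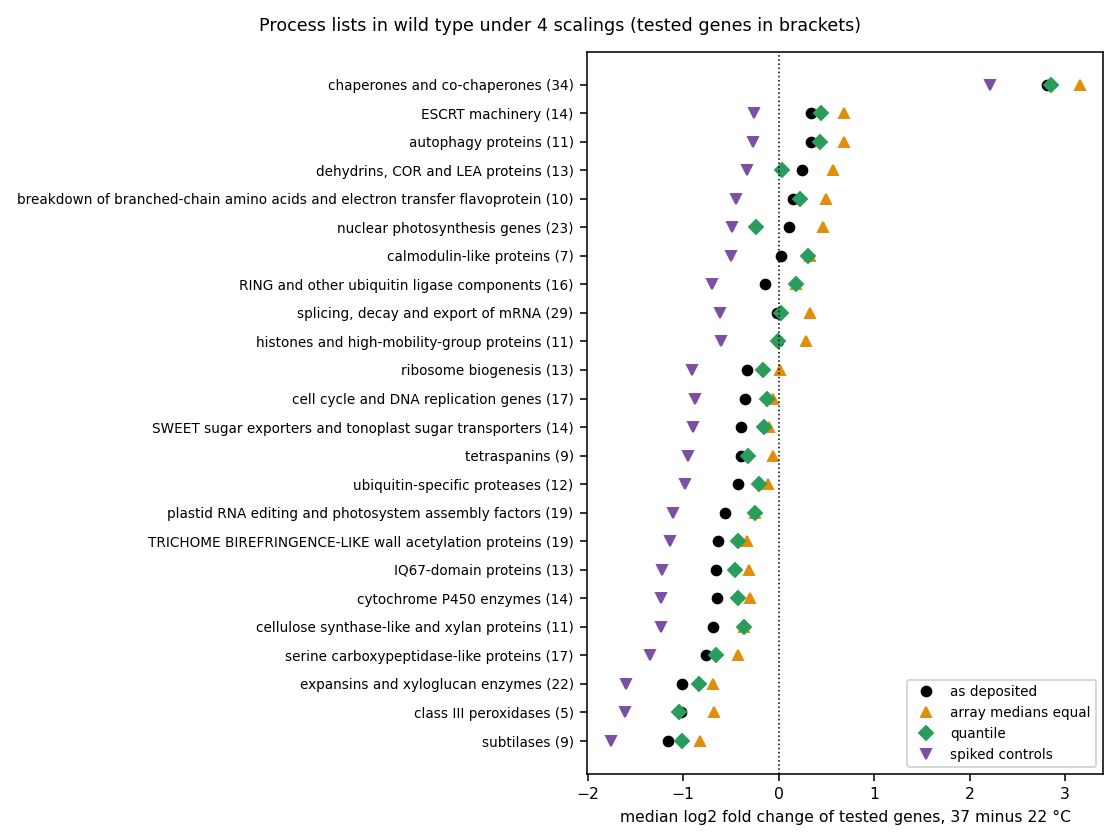
Median log2 fold change of the tested genes (horizontal axis, 37 minus 22 °C) in 24 process lists under 4 array scalings, with the number of tested genes in brackets. The chaperone median is above 0 under every scaling, the wall lists at the bottom are below 0 under every scaling, and several lists between them change sign.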

How the data were processed

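Seedling RNA was measured on 8 Affymetrix arrays, 1 per sample, grouped by title. The deposited table holds linear intensity values for 22810 probe sets, made by the authors with GCOS (no version given), per the submitters' processing notes; the summary algorithm is not stated there. The deposited intensities had a common trimmed mean, and their medians differed. No detection calls accompany them, and the number of arrays limits the precision.

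After 64 control probe sets were left out, log2(intensity + 16) was fitted in R 4.3.3 using limma 3.58.1. The 8 samples gave 4 group means and left 4 residual degrees of freedom; moderation used an intensity trend and Benjamini-Hochberg adjustment at 0.05. The dimmest 25% of probe sets were left out, which left 17059. The fit was repeated after 3 other scalings, of which the one to the spiked controls used the geometric mean of 9 probe sets. Genes were named from 13513 probe sets paired with 1 gene, using the probe set with the highest mean, with symbols updated from TAIR10.1. Errors of fold changes are standard errors.

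The members and lists were chosen with earlier results of these data known. Named genes are the 15 largest and 15 lowest stable fold changes of nuclear genes outside the chaperone list. They have a group mean of at least 200 and groups that do not overlap. Up to 4 called members of each process list with the largest change are also named. Genes named after their values were seen are so marked. The 63 lists first drafted matched few genes, some falsely, and were redrawn from gene symbols once the annotation was at hand; 5 more false matches were taken out after fold changes had been seen. The arithmetic mean of the spiked controls was tried in place of the geometric mean after results were seen, did not replace it, and is given as an added alternative. Lists share some genes and are described by counts and medians without a test. The planned promoter motif description was not run, since no promoter sequences were at hand. Replicate numbers did not pair the samples: deviations of same-numbered samples correlated at 0.04 between the wild-type groups and at -0.04 to 0.14 over all pairs of groups.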

Additional observations from a re-analysis of the deposited data

Results flagged for a closer look

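The 25S ribosomal RNA control probe set, which entered no comparison, was brighter after heat shock. Its intensity was 1828.4 and 3966.8 at 37 °C, against 335.3 and 368.6 at 22 °C, so that the mean at 37 °C was 8.23 times that at 22 °C. Both heated samples were above both controls, and they also differed from each other. The groups of 2 samples were too small to be examined for single outlying samples.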

How the results depend on the processing

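Array scaling moved the counts most. Probe sets called higher and lower numbered 5189 and 2476 with array medians set equal, 680 and 12640 with the geometric mean of the spiked controls, and 700 and 12427 with their arithmetic mean, an alternative added after results were seen, against 2118 and 5343 as deposited. With the arithmetic mean, stable calls numbered 698 higher and 2433 lower, against 679 and 2433. Lists with a median above 0 numbered 39, 27, 1 and 1 with equal medians, quantile normalization and the geometric and arithmetic means, against 16 as deposited, and those below 0 numbered 28 with equal medians, against 51. Leaving out 1 wild-type sample gave 1522 to 1857 calls higher and 3603 to 4654 lower, and 14 to 15 lists above 0 and 52 to 53 below. With 1 sample left in a group, it is assumed to vary like the other groups. The replicate block gave 2196 higher and 5463 lower and changed no call of a named gene.

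Of the named genes, 9 took the opposite sign with the spiked controls, by the geometric and then the arithmetic mean: ATG8H -0.027 and -0.00718, ATG8E -0.073 and -0.053, ATG8F -0.17 and -0.15, PSB27 -0.11 and -0.091, MCCA -0.089 and -0.069, IVD -0.14 and -0.12, MCCB -0.20 and -0.18, ALDH6B2 -0.22 and -0.20, and STOMAGEN, which was not called as deposited, -0.49 and -0.46. Leaving out 1 wild-type sample gave -0.020 to 0.23 for STOMAGEN. The cause was not tested. With 2 samples a group, no scaling could be checked against the amount of RNA per seedling, and dim genes have no measured floor.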
